A study of Mus musculus with 11 samples.

Results

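The RNAs described here are 8 small structural RNAs of the mouse cell, *Rn7sk*, *Rmrp*, *Rpph1*, *Rny1*, *Rny3*, *Rnu11*, *Rnu12* and *Terc*, out of 38561 genes in the count tables. They were taken as a named set of non-coding RNA genes, matched by symbol to their Ensembl identifiers, and all 8 were found and passed the filter on low counts. The set was chosen by measured values, namely the difference between the libraries labelled Wnt9bKO and DKO and those labelled wt and Rspo2KO, so that difference is given below as a description without a test. The name Pol III and minor spliceosome RNAs holds for 7 of the 8: *Rn7sk*, *Rmrp*, *Rpph1*, *Rny1* and *Rny3* are transcribed by RNA polymerase III (Pol III), and *Rnu11* and *Rnu12* belong to the minor spliceosome and are transcribed by RNA polymerase II. *Terc*, the RNA of telomerase, is neither.

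Total RNA was extracted from facial process explants of mixed-strain mouse embryos at E10.5, and libraries made from it were sequenced. The study describes a mixed genetic background for its Wnt9bKO mice, and whether background differed between the groups is not given in the sources used here. The explants held the mandibular and maxillary parts of the branchial arch and the nasal processes. There were 2 wild type libraries (wt), and 3 libraries each from embryos homozygous for a mutant *Rspo2* gene (Rspo2KO), for a mutant *Wnt9b* gene (Wnt9bKO) and for both (DKO). *Wnt9b* encodes a secreted WNT ligand and *Rspo2* a secreted R-spondin that strengthens WNT signalling, and the design asks how loss of each and of both changes the transcriptome. No allele besides these was shared by the groups in the labels, and the labels do not say whether a library came from 1 embryo or a pool, so p-values measure the spread between these libraries.

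Pol III makes short RNAs that do not code for protein and stops at a run of T in the DNA. 7SK RNA, from *Rn7sk*, holds the kinase P-TEFb inactive until it is released to drive transcription elongation. *Rmrp* and *Rpph1* are the catalytic RNAs of RNase MRP, which cuts the ribosomal RNA precursor, and of RNase P, which trims the 5′ end of transfer RNAs, and the 2 enzymes share most of their proteins. Y RNAs (*Rny1*, *Rny3*) bind the Ro60 protein. U11 and U12 (*Rnu11*, *Rnu12*) recognise the rare class of minor introns, and *Terc* carries the template from which telomere repeats are copied. The mature RNAs lack a long poly(A) tail, and how RNA was selected for the libraries is not given in the sources used here.

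Library totals ran from 11136166 to 18017344 counts, and levels are in CPM (counts per 1000000 counts) after TMM scaling. Some libraries stood apart from their labels. *Rspo2* was at 2.86 CPM in the library labelled Wnt9bKO 2, against 18.1 and 22.8 CPM in the other Wnt9bKO libraries, and at 15.5 CPM in the library labelled DKO 3, against 3.67 and 4.17 CPM in the other DKO libraries. *Wnt9b* counts were not lower in its mutants but higher, at 19.0 ± 2.70 CPM in Wnt9bKO and DKO (SD, n = 6) against 13.6 ± 2.16 CPM in wt and Rspo2KO (SD, n = 5; log2 0.51, edgeR adjusted p = 0.00359), so they do not check the *Wnt9b* labels. The X-linked *Xist* divided the groups along another line. It was at 679 CPM or more in every wt and DKO library and at 1.94 CPM or less in every Rspo2KO and Wnt9bKO library, so the division described here, wt and Rspo2KO against Wnt9bKO and DKO, does not follow *Xist*. The Y-linked *Ddx3y* was at 57.5 CPM or more in every Rspo2KO and Wnt9bKO library and at 1.07 CPM or less in wt and DKO, except for 4.43 CPM (73 counts) in DKO 3. The division separates libraries labelled with and without the *Wnt9b* mutation, and it also separates libraries that differed at 3008 of 17317 genes tested (17.4%, edgeR adjusted p below 0.05 and over 1.5-fold), so the genotype and any other difference between those sets of libraries cannot be told apart.

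Of the 8 RNAs, 7 were lower in every Wnt9bKO and DKO library than in any wt or Rspo2KO library, and *Terc* was higher on average with an overlap of 2 libraries. The differences among the 7 ran from 2.42-fold for *Rn7sk* to 9.48-fold for *Rny3* in the fitted group means, with a median over all 8 of -2.08 on the log2 scale (Wnt9bKO and DKO minus wt and Rspo2KO), where all genes tested had a median of 0.02. Of all genes tested, 10.6% were lower without overlap in the same way and 10.1% higher. These shares are given for scale only, since the division chose the RNAs. In sum the 8 took 2.03% to 2.65% of all counts in the wt and Rspo2KO libraries and 0.712% to 1.05% in the Wnt9bKO and DKO libraries. *Rn7sk*, *Rmrp* and *Rpph1* made up at least 98.88% of that sum in every library.

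**Figure D1:**
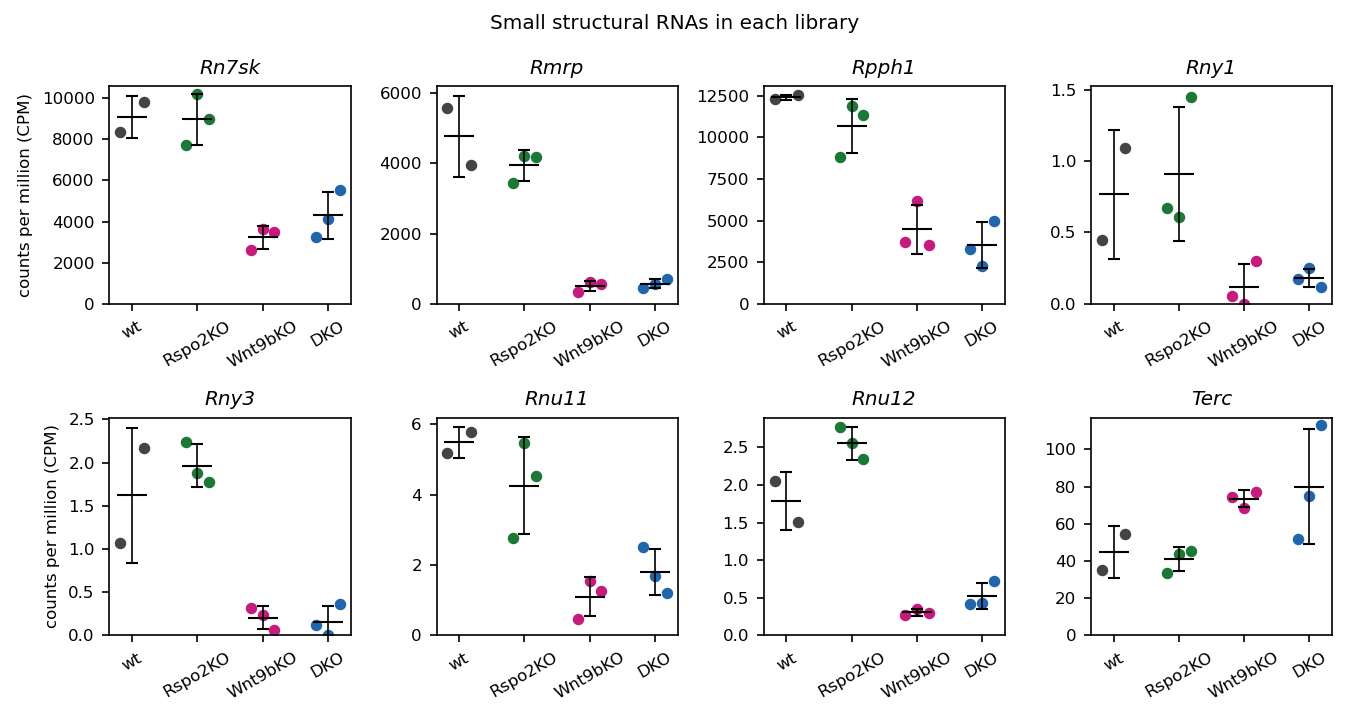
CPM (vertical axes, each from 0) of the 8 RNAs in each library, by genotype. Points are libraries, horizontal marks are group means and bars are SD (2 wt libraries, 3 in each mutant group). In 7 panels every Wnt9bKO and DKO point lies under every wt and Rspo2KO point, and in the panel of *Terc* the wt and Rspo2KO libraries reach 54.6 CPM and the lowest DKO library is at 52.0 CPM.

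*Rn7sk* (ENSMUSG00000065037) lies on chr9:78175303-78175633 on the minus strand (GRCm38) and its RNA is 331 bases long. Its first 120 bases are shown because they hold the 3 GATC sites of the RNA, in capitals; GAUC repeats in the 5′ hairpin are where the P-TEFb inhibitor HEXIM1 binds. GATC occurs in 58.3% of the 14418 annotated transcripts of counted genes with lengths between those of the shortest and the longest of the 8 RNAs, so these letters alone are common.
*Rn7sk*: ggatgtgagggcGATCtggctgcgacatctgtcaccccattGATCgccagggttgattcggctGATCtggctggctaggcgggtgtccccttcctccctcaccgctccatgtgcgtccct

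*Rn7sk* stood at 8349 and 9790 CPM in wt and at 7737, 10205 and 8970 CPM in Rspo2KO. In Wnt9bKO it was at 2608, 3629 and 3493 CPM and in DKO at 3253, 4119 and 5512 CPM. The lowest library of the first 2 groups was thus above the highest of the other 2, and the fitted difference was -1.27 ± 0.14 (log2, SE). DKO 3 was the highest of the 6 lower libraries, and leaving out libraries or changing the scaling kept the difference between -1.43 and -1.19. Of the 50-base windows of the RNA, 68.1% also occur in annotated copies of it elsewhere in the genome, so reads from those windows may not have been assigned to *Rn7sk*.

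*Rmrp* (ENSMUSG00000088088) is a gene of 271 bases on chr4:43492788-43493058, minus strand. The whole RNA is shown with the 124 bases in capitals that an exon of *Ccdc107* covers on the opposite strand (chr4:43492900-43493023), because reads from this stretch cannot be told apart from *Ccdc107* reads unless strand was used in counting, which is not given in the sources used here.
*Rmrp*: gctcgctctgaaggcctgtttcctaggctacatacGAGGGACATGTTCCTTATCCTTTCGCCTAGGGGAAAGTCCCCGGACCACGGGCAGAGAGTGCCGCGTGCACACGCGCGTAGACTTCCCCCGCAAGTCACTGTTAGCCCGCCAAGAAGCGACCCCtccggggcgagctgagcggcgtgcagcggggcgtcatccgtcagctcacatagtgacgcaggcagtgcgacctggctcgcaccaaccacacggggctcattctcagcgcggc

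*Rmrp* had the largest difference among the abundant RNAs. It was at 5588 and 3958 CPM in wt and at 3438, 4220 and 4170 CPM in Rspo2KO. Wnt9bKO libraries held 352, 615 and 570 CPM and DKO libraries 459, 559 and 711 CPM. The means were 4275 ± 797 CPM over the 5 wt and Rspo2KO libraries and 545 ± 125 CPM (SD) over the 6 others, a ratio of 7.85, and the fitted difference was -3.00 ± 0.16 (log2, SE). *Ccdc107* itself moved the other way, from 5.48 ± 0.879 to 7.91 ± 1.80 CPM (SD).

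*Rpph1* (ENSMUSG00000092837), 319 bases on chr14:50807449-50807767 of the minus strand, was the most abundant of the 8 per length in the wt and Rspo2KO libraries (35654 CPM per kb, against 27221 for *Rn7sk* and 15774 for *Rmrp*). Its level was 12310 and 12515 CPM in wt and 8842, 11860 and 11342 CPM in Rspo2KO. It was 3697, 6173 and 3564 CPM in Wnt9bKO and 3321, 2253 and 4994 CPM in DKO. The library labelled Wnt9bKO 2 was the highest of the 6 lower libraries and DKO 2 the lowest. The fitted difference of -1.54 ± 0.19 (log2, SE) was close in size to that of *Rn7sk* and smaller than that of *Rmrp*, the RNA of the sister enzyme. On the same strand, an exon of *Ccnb1ip1* covers 233 of the 319 bases in GENCODE M21 (chr14:50807500-50807732), and *Ccnb1ip1* had at most 0.622 CPM in any library.

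A related gene, *Rprl3* on chromosome 8, is annotated as an RNase P RNA-like gene and matches *Rpph1* at 242 of 286 aligned bases (84.6%). The first 120 bases of both RNAs are shown with the 7 bases at which they differ in capitals. Both share no 50-base window, but their longest common run is 37 bases. Reads were trimmed and kept from 30 bases on, so shorter reads from 16 such windows fit both genes.
*Rpph1*: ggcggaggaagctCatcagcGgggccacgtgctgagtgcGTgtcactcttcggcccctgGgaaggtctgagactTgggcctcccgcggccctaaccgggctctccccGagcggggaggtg
*Rprl3*: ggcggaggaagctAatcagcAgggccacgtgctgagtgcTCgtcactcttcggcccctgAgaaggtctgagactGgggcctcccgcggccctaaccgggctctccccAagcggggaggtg

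The counts of *Rprl3* followed a pattern that *Rpph1* did not show. They were 106 and 10 in wt and 11, 15 and 15 in Rspo2KO. In Wnt9bKO they were 12338, 22 and 11777 and in DKO 10727, 20137 and 15730. The library labelled Wnt9bKO 2 therefore stood with the wt and Rspo2KO libraries, while for *Rpph1* it stood with the Wnt9bKO and DKO libraries. Counts assigned to *Rprl3* were higher in Wnt9bKO and DKO by 8.33 ± 1.19 (log2, SE; edgeR adjusted p = 8.04e-05), by 8.65 without Wnt9bKO 2 and by 9.78 without wt 1. The counts cannot tell RNA of *Rprl3* from reads of *Rpph1* variants that were mapped to it, which was not tested, so they are not a measured level of a separate RNA.

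As a share of the counts of *Rpph1* and *Rprl3* together, *Rprl3* made 15.1% in Wnt9bKO 1 (95% Wilson interval 14.8 to 15.3%), 16.5% in Wnt9bKO 3 (16.3 to 16.8%), 15.9% in DKO 1 (15.7 to 16.2%), 35.7% in DKO 2 (35.3 to 36.1%) and 16.0% in DKO 3 (15.8 to 16.3%). It made 0.0212% in Wnt9bKO 2 (0.0140 to 0.0321%) and in wt and Rspo2KO at most the 0.0768% of wt 1 (0.0635 to 0.0928%). DKO 2, the library with the least *Rpph1*, thus had the largest share of *Rprl3*. Such intervals cover counting error only. Adding both genes gave 12319 and 12516 CPM in wt and 8843, 11861 and 11343 CPM in Rspo2KO. It gave 4354, 6174 and 4270 CPM in Wnt9bKO and 3950, 3506 and 5948 CPM in DKO. The sum still did not overlap between the sides and its fitted difference was -1.29 ± 0.15 (log2, SE), against -1.54 for *Rpph1* alone.

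**Figure D2:**
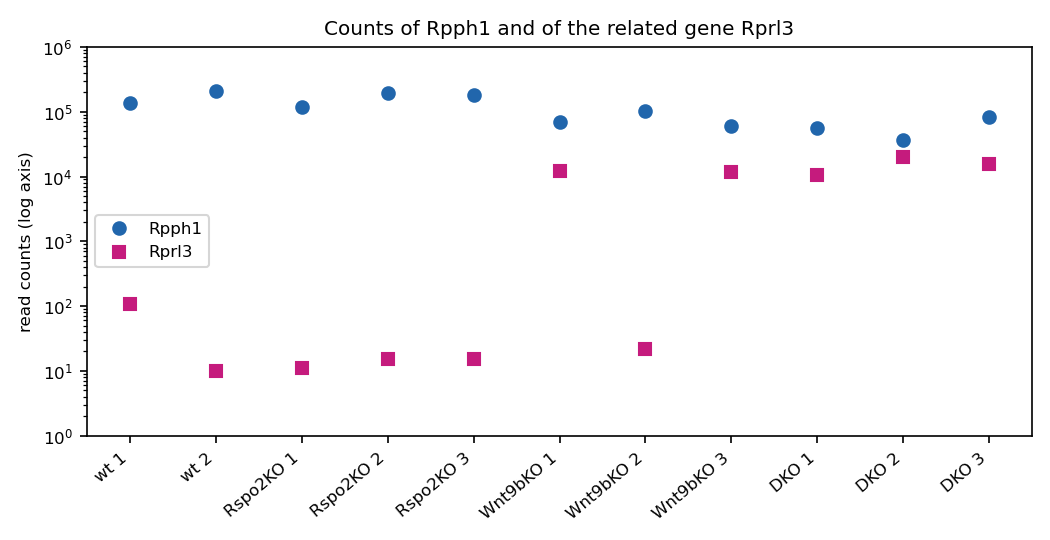
Read counts of *Rpph1* (circles) and *Rprl3* (squares) in each of the 11 libraries on a log axis. *Rprl3* has 10727 counts or more in 5 of the 6 Wnt9bKO and DKO libraries, and 22 in Wnt9bKO 2 and 106 or fewer in wt and Rspo2KO.

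Genes of the *Rmrp* and *Rpph1* kind carry their Pol III promoter before the transcript, with an octamer bound by OCT1 in the distal part and a TATA box near the start. The stretches upstream of both, which lie in the RefSeq promoter windows of the divergent genes *Ccdc107* and *Parp2* (GRCm38.p6), are shown on the strand of the small RNA. ATTTGCAT and TATAA, searched on both strands, are in capitals. The *Rmrp* stretch is chr4:43493115-43493364 and ends 57 bases before the RNA, while the *Rpph1* stretch is chr14:50807768-50807915 and reaches its first base.
*Rmrp* upstream: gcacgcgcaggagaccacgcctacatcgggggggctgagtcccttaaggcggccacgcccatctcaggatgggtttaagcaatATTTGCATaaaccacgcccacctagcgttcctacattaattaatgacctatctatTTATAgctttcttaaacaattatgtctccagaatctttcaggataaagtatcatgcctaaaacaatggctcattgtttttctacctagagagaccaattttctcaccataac
*Rpph1* upstream: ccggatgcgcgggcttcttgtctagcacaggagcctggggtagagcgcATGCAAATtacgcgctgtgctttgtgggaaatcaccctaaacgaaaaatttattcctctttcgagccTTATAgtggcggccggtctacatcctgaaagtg

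In both stretches ATTTGCAT and TATAA each occurred once. The octamer lay 93 to 100 bases before the first base of *Rpph1* and 216 to 223 bases before that of *Rmrp*. TATAA lay 29 to 33 bases before *Rpph1* and 164 to 168 bases before *Rmrp*. The bases from the end of that stretch to *Rmrp*, where a TATA box near the start would lie, were not searched. The letters marked for *Rmrp* are too far away to be that box. Among the 32851 promoter windows of 300 bases in the RefSeq table, 1.74% held ATTTGCAT, 24.9% held TATAA and 0.597% held both. The matches are letters in the sequence and were not measured for binding.

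*Rny1* (ENSMUSG00000065701) and *Rny3* (ENSMUSG00000064945) are transcribed in opposite directions 6343 bases apart on chromosome 6 (chr6:47788069-47788180 minus and chr6:47781624-47781725 plus). Both RNAs are shown whole with the terminal TTTT in capitals, the run at which Pol III stops. Of the length-matched transcripts just described, 3.50% end in TTTT, and among the 8 RNAs only these do in the annotation.
*Rny1*: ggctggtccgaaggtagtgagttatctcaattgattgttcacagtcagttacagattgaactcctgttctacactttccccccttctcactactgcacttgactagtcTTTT
*Rny3*: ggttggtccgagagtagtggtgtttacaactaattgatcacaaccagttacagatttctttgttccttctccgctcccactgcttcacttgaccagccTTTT

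Both Y RNAs were rare in the libraries. *Rny1* had 5 and 18 counts in wt and 9, 10 and 23 in Rspo2KO, and 1, 0 and 5 in Wnt9bKO and 3, 4 and 2 in DKO. In CPM the wt and Rspo2KO libraries lay between 0.446 and 1.45 and the others between 0 and 0.300, without overlap. *Rny3* had 12 and 36 counts in wt and 30, 31 and 28 in Rspo2KO, and 6, 4 and 1 in Wnt9bKO and 2, 0 and 6 in DKO. Its levels lay between 1.07 and 2.24 CPM in wt and Rspo2KO and between 0 and 0.364 CPM in the others. The fitted differences were -2.51 ± 0.51 for *Rny1* and -3.25 ± 0.41 for *Rny3* (log2, SE), the largest errors among the 8. They changed most with the choice of libraries, *Rny1* between -3.37 and -2.09 and *Rny3* between -3.95 and -2.93.

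U11 and U12 are the RNAs of the small nuclear ribonucleoprotein that binds the 5′ splice site and the branch point of minor introns. *Rnu11* (ENSMUSG00000077323) lies on chr4:132270080-132270213, minus strand, and *Rnu12* (ENSMUSG00000065176) on chr15:83149644-83149794, plus strand. Both are shown whole with ATTTTT in capitals, the core of the site on which the Sm proteins assemble. It occurs once in each and in 9.95% of the length-matched transcripts.
*Rnu11*: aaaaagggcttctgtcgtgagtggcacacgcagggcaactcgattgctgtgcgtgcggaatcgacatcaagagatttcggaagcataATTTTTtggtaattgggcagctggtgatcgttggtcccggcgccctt
*Rnu12*: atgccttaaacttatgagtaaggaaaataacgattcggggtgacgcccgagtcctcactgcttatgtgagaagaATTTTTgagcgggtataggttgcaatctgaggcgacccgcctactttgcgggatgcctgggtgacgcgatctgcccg

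*Rnu11* was at 5.18 and 5.79 CPM in wt and at 2.77, 5.46 and 4.54 CPM in Rspo2KO. It was at 0.479, 1.55 and 1.26 CPM in Wnt9bKO and at 2.52, 1.68 and 1.21 CPM in DKO. The gap between the sides was narrow, since Rspo2KO 1 at 2.77 CPM was just above DKO 1 at 2.52 CPM, and the fitted difference was -1.79 ± 0.26 (log2, SE). *Rnu12* was at 2.05 and 1.51 CPM in wt and at 2.77, 2.55 and 2.34 CPM in Rspo2KO. It was at 0.266, 0.357 and 0.300 CPM in Wnt9bKO and at 0.411, 0.436 and 0.728 CPM in DKO. The sides were further apart than for *Rnu11*, with a fitted difference of -2.37 ± 0.23 (log2, SE). Counts behind these levels were few, 5 to 12 for *Rnu12* and 9 to 43 for *Rnu11* in the Wnt9bKO and DKO libraries.

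*Terc* (ENSMUSG00000064796), on chr3:96414437-96414859 of the minus strand, is the longest of the 8 at 423 bases. Its first 120 bases are shown because they hold the telomere template, in capitals; CTAACCC occurs in 1.03% of the length-matched transcripts.
*Terc*: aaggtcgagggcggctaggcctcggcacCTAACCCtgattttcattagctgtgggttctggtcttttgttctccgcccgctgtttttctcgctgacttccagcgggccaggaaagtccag

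*Terc* went the other way from the 7. It was at 34.9 and 54.6 CPM in wt and at 33.5, 43.9 and 45.4 CPM in Rspo2KO. It was at 74.5, 68.4 and 77.3 CPM in Wnt9bKO and at 52.0, 74.7 and 113 CPM in DKO. Only wt 2 and DKO 1 crossed, and the medians were 43.9 CPM (5 libraries) and 74.6 CPM (6 libraries), with a ratio of means of 1.81 and a fitted difference of 0.83 ± 0.17 (log2, SE). Per length, *Terc* was at 100 CPM per kb in the wt and Rspo2KO libraries and 181 in the others. *Rmrp*, the third of the abundant RNAs, went from 15774 to 2009 CPM per kb on the same scale.

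Comparisons within each side did not enter the choice of the RNAs and could be tested. In Rspo2KO against wt, 0 of 8 RNAs were called (edgeR adjusted p below 0.05 and over 1.5-fold), where 0.0346% of all genes were. The differences ran from -0.36 for *Rnu11* to 0.54 for *Rnu12* (log2), with a median of -0.07, and adjusted p from 0.47 to 0.987. At an unadjusted p below 0.05 the count was also 0, and DESeq2 called 0. *Rnu12* was nearest, with every Rspo2KO library above both wt libraries (0.54 ± 0.28, SE; adjusted p = 0.47). The means of *Rn7sk* were 9070 ± 1019 CPM in wt and 8971 ± 1234 CPM in Rspo2KO (SD), closer than the spread within either group.

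In DKO against Wnt9bKO, 0 of 8 were called, where 0.121% of all genes were. *Rny1* (0 to 5 counts), *Rny3* (0 to 6) and *Rnu12* (5 to 12) passed the low-count filter through the wt and Rspo2KO libraries, so the comparison could hardly call them, and the count says little beyond the other 5. Values of 6 RNAs were above 0, that is higher in DKO, and of 2 below 0, from -0.36 for *Rny3* to 0.76 for *Rnu12* (log2, median 0.29), with adjusted p from 0.884 to 0.987. *Rn7sk*, at 4295 ± 1140 CPM in DKO and 3243 ± 554 CPM in Wnt9bKO (SD), was the 1 RNA with an unadjusted p below 0.05 (0.41 ± 0.19, SE; unadjusted p = 0.0493), and DESeq2 gave the same count. Of the 2 libraries whose *Rspo2* level goes against the label, leaving out DKO 3 gave a difference of 0.18 and leaving out Wnt9bKO 2 gave 0.50. Without both it was 0.27, and the highest value over the alternatives was 0.57, without DKO 1. In both comparisons within a side 1 group had high *Xist* and the other low, so genotype and sex cannot be told apart there. The interaction asks whether the *Rspo2* mutation acted differently with and without *Wnt9b*, but it also sets the 2 groups with high *Xist* (wt and DKO) against the 2 with low *Xist*, and these cannot be told apart either. In it 0 of 8 had an adjusted p below 0.05, where 0.0635% of all genes did. At an unadjusted p below 0.05 edgeR counted 0 and DESeq2 1 (*Rnu11*). *Rnu11* had the largest interaction, 1.10 ± 0.53 (log2, SE; adjusted p = 0.531). At such shares over all genes, a count of 0 among 8 is near the background and says nothing of the single RNAs. Every *Rnu12* level in DKO (0.411 CPM or more) was above every one in Wnt9bKO (0.357 CPM or less). These levels rest on 7, 7 and 12 counts against 5, 6 and 5, too few to read a difference from their order. The SE of up to 0.93 for the Y RNAs leaves room for differences of more than 2-fold.

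**Figure D3:**
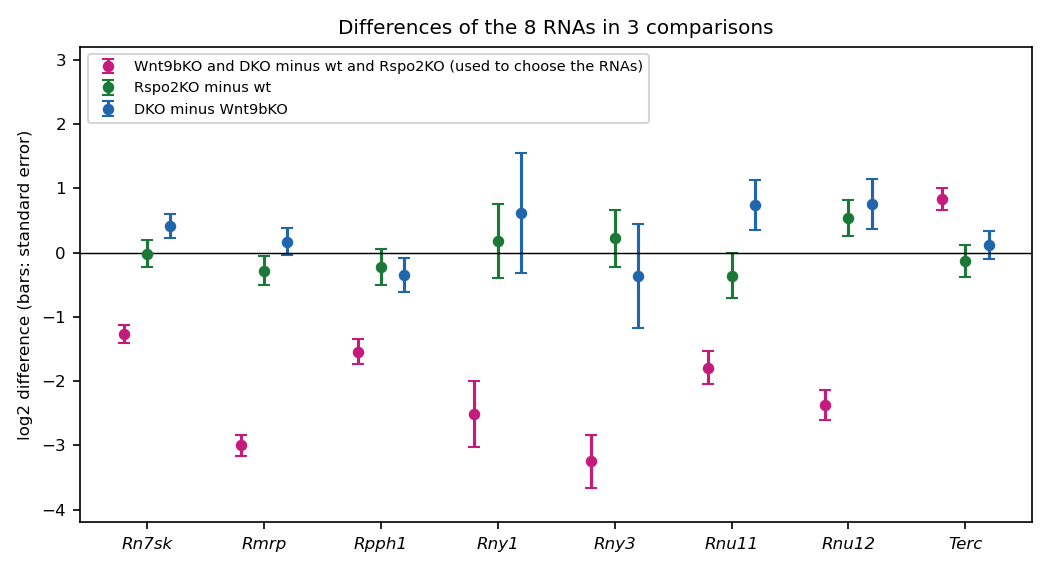
Log2 differences of the 8 RNAs (points) with standard errors (bars) in Wnt9bKO and DKO minus wt and Rspo2KO, Rspo2KO minus wt, and DKO minus Wnt9bKO. The first, by which the RNAs were chosen, runs from -3.25 to 0.83, while the other 2 stay between -0.36 and 0.76.

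Genes that sit beside the RNAs were compared between the same sides. Of 16 genes that overlap one of the 8 or flank it as the nearest protein-coding gene, 13 could be tested between the sides and 0 were called, where 7.37% of all genes were called lower and 10% higher in Wnt9bKO and DKO; at 17.4% for both directions, 13 genes are too few to set a count of 0 apart from the share of all genes. Without the fold threshold 1 was higher and 4 lower (*Ick*, *Arhgef39*, *Ttc5* and *Poldip3*, in the direction of the RNAs), where 21.5% of all genes were higher and 20.6% lower; an unadjusted p below 0.05 adds *Taf12*, and DESeq2 called 1, *Ccnb1ip1*, which the edgeR filter left out and which was at 0.0785 CPM in wt and Rspo2KO and 0.300 CPM in the others (means). *Parp2*, which encodes a DNA repair polymerase, faces the start of *Rpph1*. The distance is 149 bases from its RefSeq start and 74 bases in the annotation used for the other neighbours. *Parp2* was at 42.1 ± 4.11 CPM in wt and Rspo2KO and 43.2 ± 3.13 CPM in the others (SD). The difference was 0.03 ± 0.08 (log2, SE, edgeR adjusted p = 0.774). *Poldip3*, 260 bases from *Rnu12*, differed by -0.24 ± 0.07 (edgeR adjusted p = 0.0152), against -2.37 for *Rnu12*. Over 18 alternatives the adjusted p of *Poldip3* was as high as 0.0618.

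*Ccdc107*, which overlaps *Rmrp*, differed by 0.51 ± 0.17 (log2, SE; adjusted p = 0.0251), in the opposite direction, and passed the fold threshold without Wnt9bKO 2 (0.64). Over 18 alternatives the difference of *Ccdc107* ran from 0.39 to 0.64, and its edgeR or DESeq2 adjusted p was as high as 0.0846. The difference of *Ccdc107* therefore did not pass the threshold on adjusted p in every alternative. The flanking genes *Ick* (-0.35), *Arhgef39* (-0.40) and *Ttc5* (-0.48) were lower by less than 1.5-fold. *Ezh2* and *Pdia4*, which flank the Y RNA pair, differed by -0.01 and -0.16. *Gsta4* (-0.01), *Gmeb1* (0.01), *Taf12* (-0.21), *Cyb5r3* (-0.06) and *Fcgr1* (0.43) had adjusted p of 0.0795 or more. *Ccnb1ip1*, *Sit1* and *BC107364* were too low to test.

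**Figure D4:**
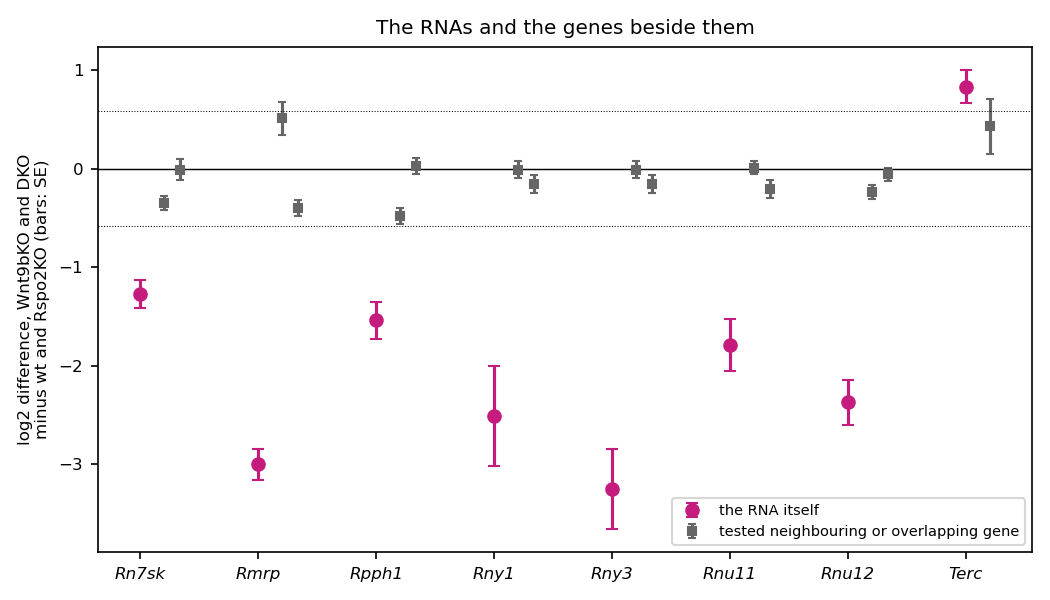
Log2 difference between Wnt9bKO and DKO and wt and Rspo2KO for each RNA (circles) and for its tested overlapping or nearest protein-coding genes (squares), with standard errors. Dotted lines mark a 1.5-fold change. The squares lie between -0.48 and 0.51, inside the lines, and 7 of the 8 circles lie at -1.27 or lower.

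Among the protein partners of the RNAs, 106 genes were tested between the sides in 8 lists, of which 5 were called higher and 16 lower, with a median of -0.14 (log2) beside 0.02 over all genes. Only the sum of both directions is near the background, in which 17.4% of all genes were called (10% higher and 7.37% lower). By direction, more partner genes were lower and fewer higher than these shares, which was not tested. Without the fold threshold 16 were higher and 38 lower, where 21.5% and 20.6% of all genes were. The counts of each list below are to be read beside these shares. The 36 tested genes of Pol III and its factors had 2 higher and 2 lower, and 3 higher and 13 lower without the fold threshold. *Polr3a*, the largest subunit of Pol III, rose by 0.78 ± 0.11 (log2, SE; adjusted p = 5.42e-05), from 25.3 to 41.5 CPM. *Pou2f1*, which encodes OCT1, rose by 0.67, and *Polr2e*, a subunit common to the RNA polymerases, fell by 0.79 (adjusted p = 2.20e-06). The other called gene, *Polr2k*, encodes a shared subunit as well.

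Of the 7 tested genes of the 7SK particle and P-TEFb, *Ccnt1* (cyclin T1) rose by 0.64 (adjusted p = 2.66e-05) and *Cdk9*, its kinase partner, fell by 0.60 (adjusted p = 2.45e-05). The call of *Cdk9* passed the fold threshold narrowly and missed it with scaling on protein-coding genes (-0.56) and without Wnt9bKO 2 (-0.55), DKO 3 (-0.56) or Rspo2KO 2 (-0.57). Among the 11 tested proteins of RNase P and RNase MRP, *Pop4* alone was called and fell by 0.62 ± 0.11 (log2, SE; adjusted p = 0.00045), from 88.7 to 58.6 CPM, and it too missed the fold threshold with that scaling (-0.58) and without DKO 1 (-0.55), Rspo2KO 2 or Wnt9bKO 2 (-0.56 each). Without the fold threshold 5 of the 11 were lower and 0 higher, where 20.6% and 21.5% of all genes were. The median of that list was -0.36, while the RNAs of the 2 enzymes differed by -3.00 and -1.54.

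Neither of the Y RNA binding genes was called: *Trove2*, the gene of Ro60, differed by 0.12 and *Ssb*, the gene of the La protein that binds the T run of new Pol III transcripts, by 0.26 ± 0.08 (adjusted p = 0.0212). Of 11 tested minor spliceosome proteins 0 were called higher and 3 lower: *Zmat5* by -0.94, *Snrnp25* by -0.93 and *Scnm1* by -0.90 (log2), the last from 30.3 to 16.6 CPM. *Snrnp25* and *Zmat5* encode proteins of the U11/U12 particle, as do others of the list that were not called, such as *Snrnp35* (0.15) and *Snrnp48* (-0.03). Without the fold threshold 1 of the 11 was higher, *Pdcd7* of that particle (0.37, edgeR adjusted p = 0.00299), and 4 were lower. Of all genes 21.5% were higher and 20.6% lower in that way. Of 16 Sm and SMN complex genes, which load the Sm ring on U11 and U12, 0 were called higher and 7 lower, led by *Gemin7* (-1.06 ± 0.09, SE; adjusted p = 7.21e-07), *Snrpd2* (-1.10) and *Snrpb* (-0.78). Without the fold threshold 10 were lower and 1 higher, the Sm gene *Snrpd1* (0.57, edgeR adjusted p = 0.000344).

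Integrator, the complex that cuts the 3′ ends of small nuclear RNAs made by RNA polymerase II, had 2 of 14 genes higher, *Ints8* and *Ints9*, each by 0.72, and 0 lower. Without the fold threshold 6 of its genes were higher and 1 lower. In the telomerase list 0 of 9 were called higher and 2 lower, *Nop10* by -1.03 ± 0.15 (adjusted p = 0.000121) and *Nhp2* by -0.76. Both encode proteins that bind the 3′ domain of telomerase RNA and of related guide RNAs, and *Terc* itself was higher in those libraries. The list was split, with a median of 0.01 and, without the fold threshold, 3 of 9 genes higher and 4 lower. *Gar1* (0.30, edgeR adjusted p = 0.0297) was among the higher ones, and *Dkc1* differed by 0.08.

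**Figure D5:**
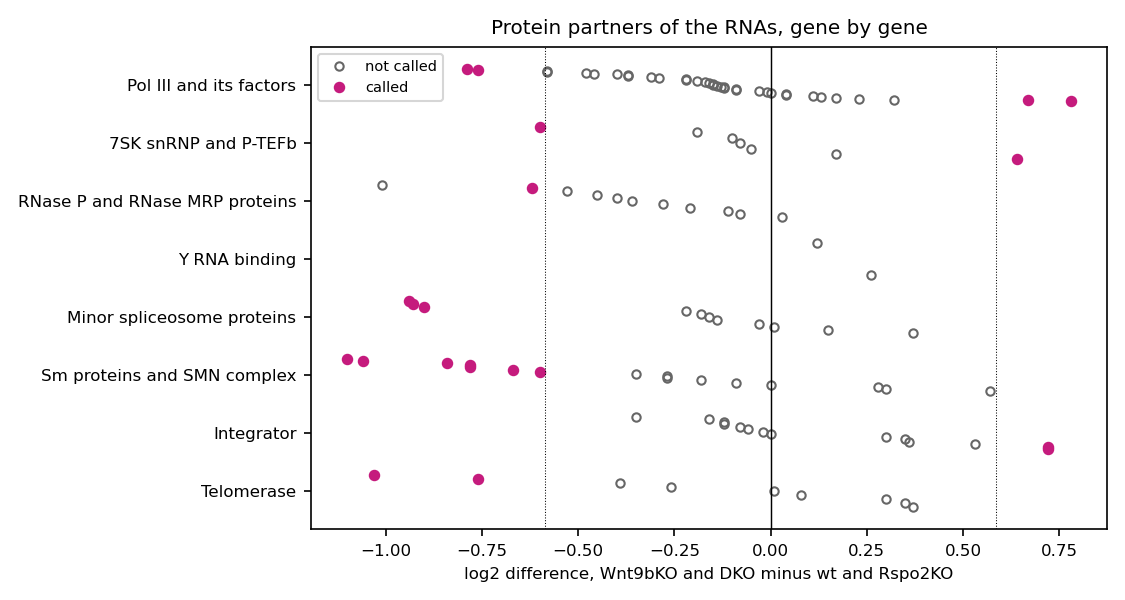
Log2 difference between Wnt9bKO and DKO and wt and Rspo2KO (horizontal axis) for each tested gene of the 8 partner lists (rows), with called genes filled and dotted lines at a 1.5-fold change. The called genes of the Sm and minor spliceosome lists all lie to the left, while those of the Pol III list lie on both sides. All partners lie between -1.10 and 0.78.

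RNase P also cuts the 3′ ends of *Malat1* and *Neat1*, long nuclear RNAs whose processing frees a small transfer RNA-like piece. *Malat1* was at 1008 to 2010 CPM in wt and Rspo2KO and at 2995 to 3800 CPM in Wnt9bKO and DKO, a rise of 1.36 ± 0.12 (log2, SE; adjusted p = 9.33e-07). *Neat1* rose by 0.62 ± 0.14 (adjusted p = 0.00324), a call that missed the fold threshold without DKO 1, Rspo2KO 2, Wnt9bKO 2 or wt 2 (0.57 each) or Rspo2KO 3 (0.58).

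Beyond the 8, 9 other small structural RNA genes could be tested between the sides, and 5 were called lower and 2 higher, where 7.37% and 10% of all genes were. Several rest on few counts, and with at least 10 counts required in every library 3 calls were left. *Vaultrc5* (1 to 5 counts in Wnt9bKO and DKO), *Rnu1a1* (3 to 11) and *Rnu2-10* (2 to 11) passed the low-count filter through the wt and Rspo2KO libraries. *Rprl2* (0 to 2 counts in wt and Rspo2KO) passed it through the others. The filter thus largely set the direction of these calls, so the numbers called lower and higher are a description only. *Rnu3a*, a U3 RNA that guides ribosomal RNA processing, was at 103 to 159 CPM in wt and Rspo2KO and at 8.35 to 17.9 CPM in the others (-3.47 ± 0.15, log2, SE; adjusted p = 1.10e-09). That difference was larger than the one of *Rmrp*, which acts in the same pathway. *Snord118*, the U8 RNA, fell by 1.88, and *Vaultrc5*, a Pol III transcript of the vault particle, fell by 2.67 ± 0.45 (adjusted p = 0.000277) from 0.900 to 0.129 CPM. *Rnu1a1* (-1.49) and *Rnu2-10* (-0.99) of the major spliceosome were also called at under 1.3 CPM, the latter not by DESeq2 nor without Rspo2KO 2 (-0.80), wt 1 (-0.99) or wt 2 (-1.01).

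The 2 called higher were *Rprl3* and its relative *Rprl2* (5.10, log2; 6.46 without Rspo2KO 3 and 6.36 without wt 1), which had 55 counts at most. The limit on what *Rprl3* counts measure holds for *Rprl2* too. *Rn7s6* and *Rnu73b* (-0.67) were not called, although *Rnu73b* was without DKO 2 (-0.86). *Rn7s6*, a signal recognition particle RNA gene, was at 23.7 CPM in Wnt9bKO 2 and at 3.94 CPM or less in the other Wnt9bKO and DKO libraries, and its difference between the sides was -1.0 (log2; adjusted p = 0.255). Without Wnt9bKO 2 it was -2.40 (adjusted p = 0.0014), without wt 2 it was -0.18 (adjusted p = 0.898), and with no low-count filter the same -1.0 was called (adjusted p = 0.000121). In 5S RNA, U6, U7 and 3 U1 genes the count was 0 in every library.

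The genes with the profile most like the mean of the 8 over the 11 libraries were *Hist1h4f*, *Scarna13*, *Hist1h4a*, *Hist1h4b* and *Brms1*, with root mean square differences of 0.107 to 0.169 between centred log2 CPM values. The median over 14844 genes of at least 1 CPM was 0.883. That mean profile carries the division that chose the RNAs, so the nearest genes had to be lower across it. The ranking is thus a description and no test of shared behaviour. Among the 8 themselves *Rn7sk* was nearest to their mean (0.236) and *Terc* farthest (1.28). *Hist1h4f*, a histone H4 gene of the replication-dependent class, was at 574 to 773 CPM in wt and Rspo2KO and had a mean of 228 ± 40.6 CPM (SD) in the others. *Scarna13*, a small RNA of Cajal bodies, was at 269 to 377 CPM in wt and Rspo2KO with a mean of 109 ± 21.7 CPM in the others. *Brms1*, which encodes a chromatin corepressor subunit, went from 41.8 ± 4.82 to 14.4 ± 1.53 CPM (SD).

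Markers of some cell types also differed across the same division. All 3 primitive erythroid globin genes were lower in Wnt9bKO and DKO (*Hbb-y* by -1.27, *Hbb-bh1* by -1.12 and *Hba-x* by -0.87, log2), with a summed level of 3829 to 5596 CPM in wt and Rspo2KO and 1638 to 2702 CPM in the others. *Myl7*, the 1 tested gene of 3 heart muscle markers, fell by 2.70, or by 1.94 without wt 1 (both log2). The 3 together were at 1.45 to 17.8 CPM in wt and Rspo2KO and 0.587 to 1.17 CPM in the others. Here wt 1 stood apart, with *Myl7* at 9.64 CPM against 1.93 CPM or less, *Tnnt2* at 5.09 against 0.364 or less and *Nppa* at 3.12 against 0.302 or less in the other wt and Rspo2KO libraries. The 6 facial mesenchyme markers were at 453 to 679 CPM in sum in wt and Rspo2KO and at 381 to 787 CPM in the others, and 1 was higher (*Dlx5*), and 0 of 4 surface epithelium, 0 of 3 neuron and 0 of 3 endothelium markers were called. Without the fold threshold all 3 endothelium markers were higher (*Pecam1* 0.35, *Kdr* 0.34 and *Cdh5* 0.33, log2; adjusted p 0.00465 to 0.0291), although *Pecam1* was not without wt 2 (adjusted p = 0.0813) and *Cdh5* was not without any 1 of 6 libraries (adjusted p up to 0.225, without wt 1) or with the replicate block. By the same measure the epithelium list went both ways, with *Epcam* higher (0.29, adjusted p = 0.0145) and *Krt8* lower (-0.47), *Tubb3* of neurons was lower (-0.50) and *Dlx2* of the mesenchyme higher (0.50, adjusted p = 0.0163). Without wt 1 neither *Epcam* (0.21) nor *Dlx2* (0.49) had an adjusted p below 0.05, and *Dlx2* had none without wt 2 (0.51). In bulk tissue fewer cells of a type and less RNA per cell cannot be told apart, and the part of these marker differences in the levels of the 8 RNAs was not tested.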

How the data were processed

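The authors deposited raw read counts per Ensembl gene for each of 11 libraries; by the study's methods and the submitters' processing notes, single-end reads were trimmed with Cutadapt, mapped to GRCm38 with STAR and counted with HTSeq. The versions, annotation release, strand setting and RNA selection are not given in the sources used here. The RNAs, partner lists and tests were chosen with earlier results of these data known.

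Counts were filtered (filterByExpr, 17317 genes kept), scaled (TMM) and fitted with edgeR 4.0.16 in R 4.3.3 as 1 model with a mean per genotype. A call is a quasi-likelihood adjusted p (Benjamini-Hochberg over all genes tested) below 0.05 and a change over 1.5-fold; the interaction has no fold threshold. SE is derived from the F statistic. All 8 RNAs, their overlapping and nearest protein-coding genes, tested small RNAs, up to 3 called genes per partner list with the smallest p and the 5 genes nearest in profile are named; other called genes and markers were named after their values were seen. DESeq2 1.42.0, other filters and scalings, a replicate block and left-out libraries were alternatives; the sum of *Rpph1* and *Rprl3* was added after seeing the data. Transcripts came from GENCODE M21 (GRCm38) and promoters from RefSeq (GRCm38.p6). On simulated counts for DKO against Wnt9bKO, over 16904 genes, 67 of 100 genes changed 2-fold and 92 of 100 changed 4-fold were called, with 14 of 16709 unchanged genes.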

Additional observations from a re-analysis of the deposited data

Results flagged for a closer look

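Within the 5 wt and Rspo2KO and the 6 Wnt9bKO and DKO libraries, 34 sets of values of the 8 RNAs and the 9 other tested small RNAs were searched for a library far from the rest by Dixon's gap ratio, which chance exceeds in about 1 of 20 sets. There were 3 such values. *Rnu12* in DKO 3 was at 0.728 CPM, with the next of the Wnt9bKO and DKO libraries at 0.436 CPM and a gap of 0.633 of the range. *Rprl3* in wt 1 was at 9.46 CPM, where the next wt or Rspo2KO library was at 0.947 CPM. *Rn7s6* in Wnt9bKO 2 was at 23.7 CPM, with the next at 3.94 CPM.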

How the results depend on the processing

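None of the 8 RNAs was called in Rspo2KO against wt, DKO against Wnt9bKO or the interaction under any alternative in which it was tested. Across the division, they kept their direction in all 141 recomputed values, and 2 (*Rny1*, *Rny3*) moved by more than the spread between replicates. The median stayed between -2.13 and -1.92 except with at least 10 counts in every library, where the rarest RNAs drop out (-1.39). Partner calls stayed between 19 and 25, and rose from 21 to 54 without a fold threshold. Other small RNA calls fell from 7 to 3 with at least 10 counts in every library (fewer genes tested). Neighbour calls were 1 with DESeq2 and with no low-count filter (*Ccnb1ip1*), 1 without the libraries labelled Wnt9bKO 2 and DKO 3 (*Ccdc107*), 5 without a fold threshold, and 0 to 1 when 1 library was left out (1 without Wnt9bKO 2).

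The replicate numbers do not pair the libraries (correlations of same-numbered libraries -0.105 to 0.236); with the replicate block partner calls were 22 and *Rny1* in Rspo2KO against wt was -0.24, and the calls among the 8 RNAs, the other small RNAs (7) and the neighbours (0) kept their number. Signs turned only for differences that were not called; the cause was not tested. With 1 library left out in turn, the ranges (log2) were, in Rspo2KO against wt, -0.12 to 0.10 for *Rn7sk*, -0.50 to 0.00 for *Rmrp*, -0.33 to 1.02 for *Rny1*, -0.14 to 0.86 for *Rny3* and -0.41 to 0.23 for *Terc*. In DKO against Wnt9bKO they were -0.04 to 0.32 for *Rmrp*, -1.67 to 0.18 for *Rny3* and -0.21 to 0.35 for *Terc*, and in the interaction -0.46 to 0.17 for *Rpph1*, -0.40 to 2.21 for *Rny1*, -0.07 to 0.45 for *Rnu12* and -0.11 to 0.53 for *Terc*. Between the sides they were -0.13 to 0.01 for *Cyb5r3*, -0.03 to 0.05 for *Gmeb1*, -0.08 to 0.06 for *Ezh2*, -0.08 to 0.07 for *Gsta4* and -0.02 to 0.09 for *Parp2*. Without the libraries labelled Wnt9bKO 2 and DKO 3, *Terc* was -0.26 in DKO against Wnt9bKO and -0.12 in the interaction. With *Rprl3* counts added, the interaction of *Rpph1* was 0.07. With scaling on protein-coding genes *Ezh2* and *Gsta4* were each 0.03.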
